A study of Bos taurus with 30 samples.

Results

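The genes described here are the nuclear genes for subunits of the oxidative phosphorylation machinery, measured in bovine lymphocyte samples. They were chosen by name: a symbol, current or from the array's annotation, beginning with NDUFA, NDUFB, NDUFC, NDUFS, NDUFV, UQCR, ATP5 or one of COX4 to COX8, or being CYC1 or one of SDHA to SDHD. This gave 74 of 3269 named genes, with 37 in complex I, 4 in complex II, 6 in complex III, 11 in complex IV and 16 in complex V. All 74 were among the 2402 named genes bright enough to be tested. The prefix also brought in genes that are not plain subunits of the complex whose name they carry. NDUFAB1 is the mitochondrial acyl carrier protein, NDUFA4 is now held to be a subunit of complex IV, ATP5IF1 is an inhibitor of ATP synthase, and DMAC2L, named ATP5S on the array, was described as coupling factor B.

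Complexes I to IV of the inner mitochondrial membrane pass electrons from NADH and succinate to oxygen, and complexes I, III and IV pump protons as they do so. Complex V, the ATP synthase, uses the returning protons to make ATP. Most subunits are encoded in the nucleus. A few core ones are encoded in mitochondrial DNA, and none of those was named among the features used here. Resting lymphocytes draw much of their ATP from this pathway, and activated ones add glycolysis to it.

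RNA of lymphocytes from 15 cattle was hybridised to 30 single-colour arrays. Collection at the slaughterhouse is given in the sources used here. As each animal was sampled 2 times, it may not hold for both samplings. The prednisolone group (8 animals) received 30 mg of prednisolone, a synthetic glucocorticoid, per head by mouth each day for 35 days, and the control group (7 animals) is labelled only as control. The dosing text stands in the labels of both groups, so what the controls were given is not stated. Each animal was sampled at T2 and at T1. How the 2 samplings fall against the dosing, the animals' age and their breed are not stated either. Cell markers tested in these samples were 8 of T cells, 3 of B cells and 8 of natural killer cells. Markers of other cells were tested too: 3 of monocytes, 7 of neutrophils, 5 of erythroid cells and 2 of platelets. The monocyte gene CD14, the neutrophil gene S100A12 and the erythroid gene HBB were measured on every array. In such a bulk sample, fewer cells of a type and less RNA per cell cannot be told apart.

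Levels are given as log2 of scaled intensity, and they compare arrays for 1 gene, never gene with gene. A gene was said to rise or fall when its Benjamini-Hochberg adjusted p in limma, over all 2402 genes, was under 0.05. That main fit did not use the pairing of an animal's T2 and T1 arrays. The members were bright: 71 of 74 lay above the median named gene, and only 0.698% of their values were missing. Each was read by 2 array features, whose values correlated with a median r of 0.792 over the arrays. In 9 members that r was under 0.5. For UQCRC2 the 2 features differed by 0.431 on the log2 scale with r = 0.245, and for NDUFA6 their r was 0.259. It was 0.417 for ATP5MG and 0.439 for NDUFB4, also named in the results. The T1 arrays of prednisolone animals 28 and 32 stood apart over all genes: the interquartile range of their centred log2 levels was 0.563 and 0.677, against 0.348 to 0.470 for the other prednisolone animals at T1. Member calls lost without these 2 animals are given beside the values.

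No member changed by more than 2-fold in any of the 5 comparisons. Of all 2402 genes, 40 did between prednisolone and control animals at T2 and 33 at T1. Between T2 and T1 it was 118 in the prednisolone animals and 15 in controls, and 137 for the difference between these changes. At such shares few of 74 members would be looked for, and the contrast was not tested. At T2, 3 members rose and 3 fell in prednisolone animals against controls, that is 4.05% in each direction, beside 11.0% of all genes higher and 7.58% lower. The 3 that fell were DMAC2L, NDUFA9 and COX6B1. The 3 that rose were NDUFS1, NDUFA6 and ATP5IF1. At T1 a single member, ATP5F1D, was higher in prednisolone animals and none was lower, beside 0.125% of all genes higher and 0.208% lower. Between T2 and T1 in the prednisolone animals 13 members rose and 8 fell (17.6% and 10.8%), beside 21.9% and 16.1% of all genes. In control animals limma called no member between T2 and T1, beside 0% of all genes higher and 0% lower. There, 5 members and 243 of all genes had an unadjusted p under 0.05. The change over time differed between the treatments for 5 members, 1 upward and 4 downward (1.35% and 5.41%), beside 9.37% and 8.78% of all genes. In each of these comparisons except the higher calls at T1, where the count was 1 gene, the share of members called was below or equal to that of all genes.

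When the animal was entered as a block in a fit of all 30 arrays, 7 members were higher at T1 and none lower. The share was 9.46%, beside 9.66% of all genes in either direction, and 64.7% of those calls among all genes were higher. At T2 the block left 4 calls, 1 up and 3 down (5.41%, beside 15.5%). Over time it gave 26 calls in prednisolone animals, 16 up and 10 down (35.1%, beside 46.4%), and 2 in controls, both up (2.70%, beside 1.67%). In controls 67.5% of the calls among all genes were higher. For the difference between the 2 changes over time it gave 13 calls, 3 up and 10 down (17.6%, beside 26.5%). The block fit uses the pairing of T2 and T1, but it also takes the spread from all arrays. A fit of all arrays without the animal gave the same count at T1. At T2 it also lost ATP5IF1 and NDUFA6 (limma adjusted p = 0.1735 and 0.1299, beside 0.1683 and 0.1366 with the block). The part of the pairing in these counts was not tested.

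As a set the members moved little. The median member difference between prednisolone and control animals was 0.08 on the log2 scale at T2, beside 0.04 for all genes, and 0.08 at T1, beside 0.03. Of the 74 members, 55 lay above 0 at T2 and 53 at T1 (74.3% and 71.6%), beside 56.7% and 54.7% of all genes. Both counts come from the same 15 animals, and both depend on the scaling. After quantile normalization every member difference that changed sign at T2 or T1 went from above 0 to below it. Among them were ATP5F1A at T2 (0.046 to -0.024) and CYC1 at T1 (0.050 to -0.013). The median of all genes was then 0.007 at T2 and 0.010 at T1. Over time the median was 0.004 in prednisolone animals and 0.055 in controls, beside 0.040 and 0.042 for all genes. The typical size of a member's change was also smaller than that of a typical gene. Regardless of sign, the median difference over time was 0.115 for members and 0.278 for all genes in prednisolone animals, and 0.086 and 0.125 in controls. The members were also brighter than most genes, as given above, and the part of brightness in this was not tested.

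**Figure D1:**
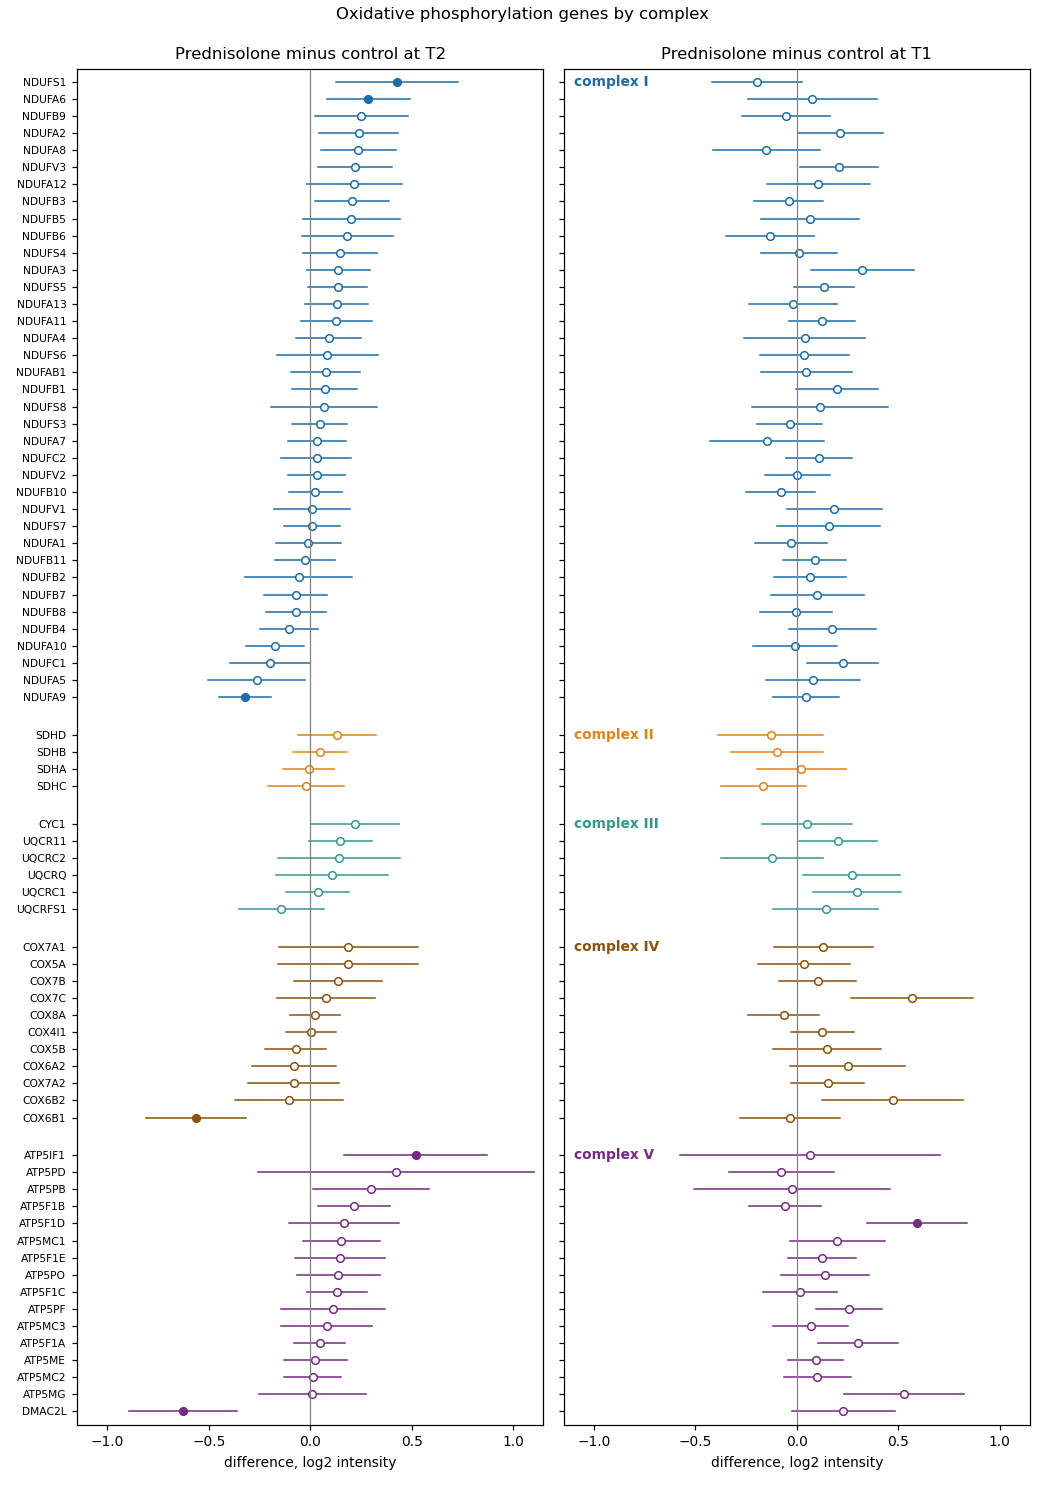
Difference between prednisolone and control animals for each of the 74 genes at T2 (left) and T1 (right), in log2 intensity, with the 95% confidence interval as a line; filled points passed an adjusted p of 0.05. Genes are grouped by complex and ordered within it by their difference at T2, where 3 filled points lie above 0 and 3 below; at T1 the only filled point is ATP5F1D.

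Complex I held 37 of the members and 3 of the 6 calls at T2. NDUFA9, an accessory subunit where the matrix arm meets the membrane arm, was lower in every prednisolone animal than in any control at T2. Its log2 level was 12.51, 12.64 and 12.78 (lowest, median and highest) in prednisolone animals at T2, against 12.86, 12.94 and 13.04 in controls. At T1 the same 3 values were 12.82, 12.97 and 13.14 in prednisolone animals, against 12.80, 12.92 and 13.15 in controls, so the groups overlapped across their whole range. The T2 difference was -0.32 (SE 0.061, 1.25-fold lower, limma adjusted p = 0.0022), and T2 minus T1 within the prednisolone animals was -0.34 (SE 0.067, adjusted p = 7.96e-04), seen in 8 of 8 animals without overlap of the 2 samplings. The change over time differed from that of controls by -0.37 (SE 0.090, adjusted p = 0.0062). These 3 calls use the same T2 arrays, and each passed under all 9 alternative analyses tried.

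NDUFS1, the large iron-sulfur subunit of the matrix arm, went the other way. Its level was 7.95, 8.10 and 8.32 in prednisolone animals at T2 and 7.08, 7.38 and 7.73 in the same animals at T1, with no overlap. Controls at T2 spanned both of these ranges, with 7.02, 7.70 and 8.35 at T2 and 7.26, 7.56 and 7.84 at T1. The rise over time in prednisolone animals was 0.75 (SE 0.090, 1.68-fold, limma adjusted p = 1.51e-05), in 8 of 8 animals. Against controls at T2 it was 0.43 higher (SE 0.142, adjusted p = 0.0470), a call that 4 of 8 alternatives did not give (0.0901 without animals 28 and 32). The change over time differed between treatments by 0.62 (SE 0.176, adjusted p = 0.0146), with an adjusted p of 0.0611 when animals 28 and 32 were left out.

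The other complex I genes that rose over time in prednisolone animals were all accessory subunits. NDUFA8, on the intermembrane side, had levels of 11.37, 11.54 and 11.73 at T2 and 10.65, 11.05 and 11.44 at T1, a rise of 0.45 (SE 0.110, limma adjusted p = 0.0046). The membrane-arm subunits NDUFB3 and NDUFB5 rose by 0.27 (SE 0.067, adjusted p = 0.0048) and 0.34 (SE 0.075, adjusted p = 0.0022), each in 8 of 8 animals. NDUFB9 and NDUFB6, also of the membrane arm, rose by 0.31 and 0.28, and the matrix-arm subunits NDUFS4 and NDUFA12 by 0.30 and 0.27, with adjusted p between 0.0072 and 0.0309. Without animals 28 and 32 these last 4 had adjusted p between 0.0731 and 0.1563. NDUFA11 joined the rising genes with the animal as a block (0.16, block adjusted p = 0.0352).

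NDUFA5 and NDUFC1 fell with NDUFA9. NDUFA5, an accessory subunit of the matrix arm, had levels of 12.46, 12.57 and 12.92 at T2 and 12.90, 13.00 and 13.21 at T1 in prednisolone animals. The 2 samplings overlapped by the T2 sample of animal 26 and the fall was -0.43 (SE 0.078, limma adjusted p = 5.30e-04), in 7 of 8 animals. NDUFC1, a small membrane-arm subunit, fell by 0.32 (SE 0.082, adjusted p = 0.0059), in 8 of 8 animals. Its change over time differed from that of controls by -0.42 (SE 0.120, adjusted p = 0.0146). Against controls at T2 neither passed, at -0.26 (adjusted p = 0.1194) for NDUFA5 and -0.20 for NDUFC1.

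The third call at T2 in complex I was NDUFA6, a subunit that anchors the acyl carrier protein. It was 0.29 higher in prednisolone animals (SE 0.096, limma adjusted p = 0.0486), and 8 of the 9 alternatives did not give the call, with 0.1366 for the animal block, 0.2852 on the brighter of its features and 0.0942 without animals 28 and 32. At T1 no complex I gene passed. The largest difference there was NDUFA3, an accessory subunit of the membrane arm, at 0.32 (SE 0.118, adjusted p = 0.1354, block 0.0437). The most negative was NDUFS1 at -0.20 (adjusted p = 0.2845). In the block fit, NDUFA8 and NDUFB4 also joined the genes whose change over time differed between treatments, at 0.39 (block adjusted p = 0.0341) and -0.28 (block adjusted p = 0.0344). For NDUFB4 the mean was 12.541 at T1 and 12.734 at T2 in controls, beside 12.717 and 12.628 in prednisolone animals.

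**Figure D2:**
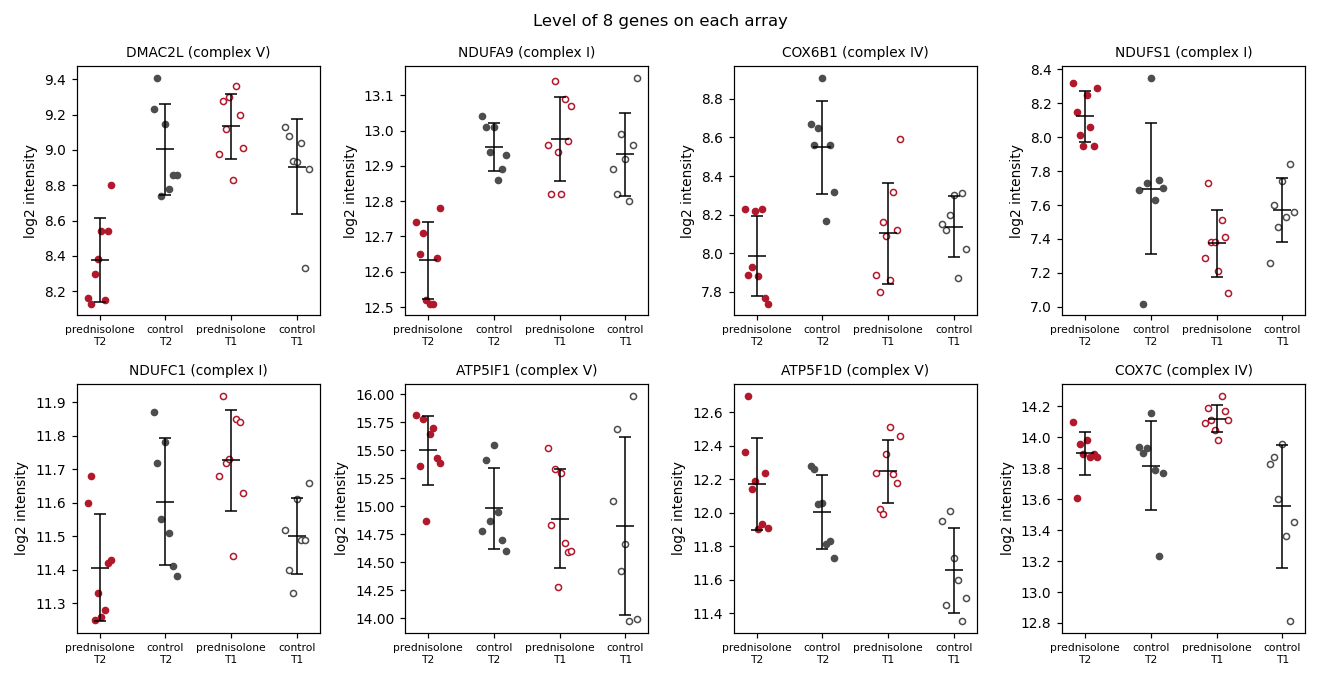
Log2 intensity of 8 genes on each array; points are animals, filled at T2 and open at T1, and bars are the mean and SD of prednisolone (8) and control (7) animals. DMAC2L and NDUFA9 have their lowest group mean in prednisolone animals at T2, where NDUFS1 has its highest, COX6B1 has its highest group mean in controls at T2, and ATP5F1D and COX7C are separated at T1 more than at T2.

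Complex II, which takes electrons from succinate, had no call between prednisolone and control animals at either time. Differences at T2 ran from -0.02 for SDHC, a membrane anchor, to 0.13 for SDHD, its partner. At T1 they ran from -0.17 for SDHC to 0.02 for SDHA, so complex II was the one complex with a median below 0 at T1 (-0.11), over 4 genes. Over time in the prednisolone animals the 2 calls were opposite. SDHD rose by 0.30 (SE 0.103, limma adjusted p = 0.0318), with levels of 11.01, 11.25 and 11.41 at T2 and 10.56, 10.91 and 11.25 at T1. SDHA, the flavoprotein that oxidises succinate, fell by 0.16 (SE 0.062, adjusted p = 0.0487), with 14.56, 14.66 and 14.76 at T2 and 14.62, 14.86 and 14.97 at T1. Without animals 28 and 32 their adjusted p was 0.1533 and 0.2792.

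Complex III, which passes electrons to cytochrome c, likewise had no call at T2. CYC1, its cytochrome subunit, was 0.22 higher (adjusted p = 0.1539), and UQCRFS1, the Rieske iron-sulfur protein, was at -0.14 (adjusted p = 0.3727). At T1 UQCRC1, a core protein, had levels of 13.63, 13.83 and 14.10 in prednisolone animals, against 13.31, 13.51 and 13.89 in controls. That difference was 0.30 (SE 0.102, limma adjusted p = 0.1164) and passed with the animal as a block (0.0437). The most negative difference at T1 was UQCRC2 at -0.12 (adjusted p = 0.5582). Over time in prednisolone animals UQCRFS1 fell by 0.31 (SE 0.084, adjusted p = 0.0079), with 11.57, 11.82 and 11.92 at T2 and 11.81, 12.06 and 12.33 at T1. UQCRC2, the other core protein, rose by 0.34 (SE 0.102, adjusted p = 0.0155), on the brighter of its 2 discordant features. The value was 0.58 on the mean of both, and without animals 28 and 32 it was 0.28 (adjusted p = 0.1100).

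In complex IV, cytochrome c oxidase, 0 of 11 members rose and 2 fell over time in prednisolone animals, beside 21.9% of all genes higher and 16.1% lower. Of its members, 8 lay below 0 in that comparison and the median was -0.12, against a median of 0.04 in control animals. Whether complex IV differs from the other complexes was not tested. COX5B, a subunit on the matrix side, fell by 0.39 (SE 0.092, limma adjusted p = 0.0037) in 8 of 8 animals, with levels of 13.41, 13.54 and 13.64 at T2 and 13.61, 13.88 and 14.19 at T1. COX7C, a small membrane subunit, fell by 0.22 (SE 0.068, adjusted p = 0.0153, block 0.0677, and 0.0691 without animals 28 and 32). The fit with the animal as a block also called COX4I1, the common regulatory isoform, at -0.14 (block adjusted p = 0.0248). It called COX7A2, a small membrane subunit, at -0.19 (block adjusted p = 0.0423) and COX6B2, an isoform known from testis, at -0.30 (block adjusted p = 0.0460).

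COX6B1, which faces the intermembrane space near the site where cytochrome c docks, was the complex IV call at T2. Its level was 7.74, 7.91 and 8.23 in prednisolone animals, against 8.17, 8.56 and 8.91 in controls, with overlap only at the edge of the ranges. The difference was -0.56 (SE 0.115, 1.48-fold lower, limma adjusted p = 0.0036), and all 9 alternatives gave it. At T1 the values were 7.80, 8.11 and 8.59 in prednisolone animals, against 7.87, 8.15 and 8.31 in controls. Within the prednisolone animals COX6B1 had no call over time, while in controls it was 0.41 higher at T2 than at T1 in 7 of 7 animals (adjusted p = 0.2979, block 0.0401). The change over time differed by -0.53 (SE 0.163, adjusted p = 0.0246), with 0.0798 when animals 28 and 32 were left out and 0.0577 on the brightest feature.

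At T1 COX7C lay higher in every prednisolone animal than in any control, at 13.98, 14.11 and 14.27 against 12.81, 13.60 and 13.96. The difference was 0.57 (SE 0.140, limma adjusted p = 0.0584, block 0.0079). At T2 its groups overlapped, at 13.61, 13.89 and 14.10 in prednisolone animals against 13.23, 13.90 and 14.16 in controls. With the block its change over time differed by -0.49 (0.0144). COX6B2 was 0.47 higher at T1 (SE 0.164, adjusted p = 0.1172, block 0.0437), and its change over time differed by -0.58 (adjusted p = 0.0533, block 0.0188). The muscle isoforms COX7A1 and COX6A2 had no call in any comparison, and COX7A1 had the highest T2 difference of the complex at 0.19 (adjusted p = 0.4775). COX8A, a small membrane subunit, was the lowest of the complex at T1, at -0.07.

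In complex V the largest fall of any member was that of DMAC2L. In prednisolone animals at T2 its levels were 8.16, 8.13, 8.30, 8.38, 8.54, 8.15, 8.54 and 8.80 in animals 25 to 32. In the same animals at T1 they were 8.98, 9.28, 9.12, 9.30, 8.83, 9.36, 9.20 and 9.01, so that no T2 value reached the lowest T1 value. In control animals it was 8.74, 8.86 and 9.41 at T2 (lowest, median and highest) and 8.33, 8.94 and 9.13 at T1. At T2 a single prednisolone animal, 32, lay within the range of the controls. The difference was -0.63 at T2 (SE 0.125, 1.55-fold lower, limma adjusted p = 0.0030) and -0.76 over time in prednisolone animals (SE 0.106, 1.69-fold lower, adjusted p = 5.48e-05). The change over time differed from that of controls by -0.86 (SE 0.173, adjusted p = 0.0013). All 9 alternatives gave the 3 calls.

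ATP5IF1, the inhibitor of the enzyme's reverse reaction, was high where DMAC2L was low. Its level was 14.87, 15.54 and 15.82 in prednisolone animals at T2, against 14.60, 14.87 and 15.55 in controls, with overlapping ranges. The difference of 0.52 (SE 0.166, limma adjusted p = 0.0390) was not called in 6 of 9 alternatives, with 0.1683 for the animal block. Over time it rose in prednisolone animals by 0.61 (SE 0.182, adjusted p = 0.0138) in 8 of 8 animals, and all alternatives gave that call. Controls at T1 spanned 13.97 to 15.99, a range wider than that of any other group for this gene, and the difference between treatments in the change over time did not pass (0.46, adjusted p = 0.4025).

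Of the catalytic head, ATP5F1B, the subunit that makes ATP, rose over time in prednisolone animals by 0.22 (SE 0.062, limma adjusted p = 0.0101), with 15.62, 15.71 and 15.85 at T2 and 15.34, 15.52 and 15.69 at T1. ATP5F1A, its structural partner, had no call over time and was 0.30 higher at T1 in prednisolone animals (SE 0.093, adjusted p = 0.0940, block 0.0168). With the block their changes over time differed from controls in opposite directions, at 0.27 for ATP5F1B (0.0399) and -0.25 for ATP5F1A (0.0432). ATP5F1D, of the rotating central stalk, gave the T1 call. It was at 11.99, 12.24 and 12.51 in prednisolone animals, against 11.35, 11.60 and 12.01 in controls, overlapping at the edge. The difference was 0.59 (SE 0.116, 1.51-fold, adjusted p = 0.0409), and without animals 28 and 32 it was 0.54 (adjusted p = 0.1506). With the block its change over time differed by -0.43 (0.0419). The larger move was in controls, whose mean was 11.656 at T1 and 12.003 at T2, beside 12.248 and 12.170 in prednisolone animals. Likewise for ATP5F1A the means were 14.826 at T1 and 15.031 at T2 in controls, beside 15.126 and 15.077 in prednisolone animals.

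In the peripheral stalk, ATP5PO rose over time in prednisolone animals by 0.32 (SE 0.074, limma adjusted p = 0.0035), and in controls the difference was also 0.32 (adjusted p = 0.4055, block 0.0465). The change over time differed between the treatments by -0.001 (95% interval -0.283 to 0.282). ATP5PB and ATP5PD, of the same stalk, were 0.45 (block adjusted p = 0.0163) and 0.65 (block adjusted p = 0.0099) higher at T2 than at T1 in prednisolone animals. For ATP5PB animal 32 was at 6.97 at T1, while the other prednisolone animals lay between 7.86 and 8.60. The part of that array in the rise was not tested. For ATP5PD 1 array stood apart: animal 25 was at 10.45 at T2 while the other prednisolone animals lay between 7.74 and 8.22, and without animal 25 the mean difference was 0.385 (7 animals, not tested). At T1 ATP5PD had the most negative treatment difference of the complex, at -0.08. ATP5MG, a membrane subunit, was 0.53 higher at T1 in prednisolone animals (SE 0.139, adjusted p = 0.0603, block 0.0165), and its change over time differed by -0.52 (adjusted p = 0.0531, block 0.0181). Its mean was 13.552 at T1 and 13.956 at T2 in controls, beside 14.079 and 13.966 in prednisolone animals.

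**Figure D3:**
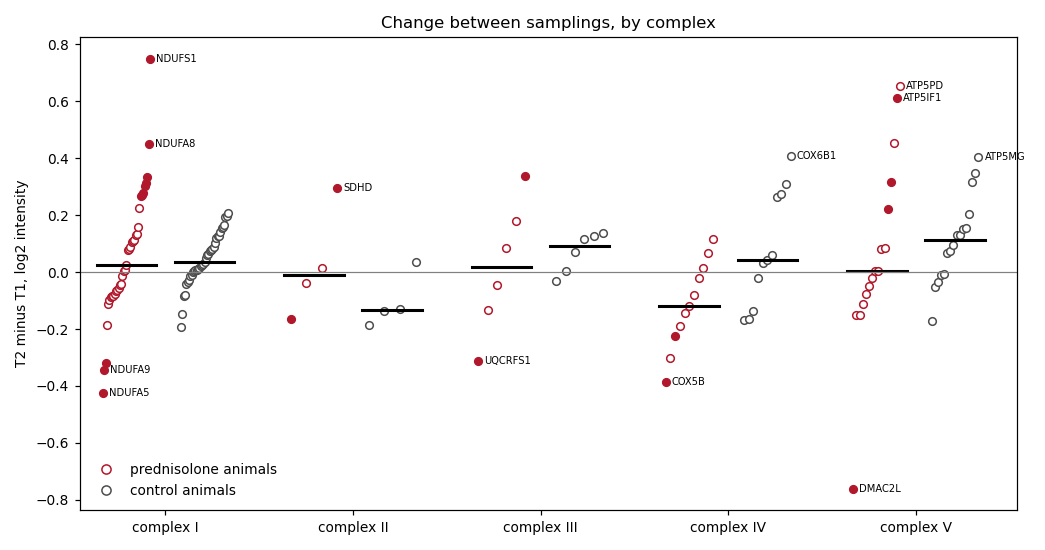
T2 minus T1 in log2 intensity for each gene, by complex, in prednisolone animals (red, left of each pair) and control animals (grey, right); filled points passed an adjusted p of 0.05 and black bars are medians. The 13 rising and 8 falling genes are all in prednisolone animals, and complex IV has none above 0 that passed; no control point passed.

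Over time in the prednisolone animals 4 of 5 complexes had calls in both directions: 8 up and 3 down in complex I, 1 and 1 in complex II, 1 and 1 in complex III, 0 and 2 in complex IV, and 3 and 1 in complex V. In all, 24 of 74 members (32.4%) were called in at least 1 comparison, beside 42.6% of all genes. With the block counted as well it was 35 members (47.3%), beside 53.2% of all genes. Array by array, the median member level, with each gene centred on its mean, ran from -0.030 to 0.164 in prednisolone animals and -0.137 to 0.211 in controls at T2. At T1 it ran from -0.056 to 0.157 in prednisolone animals and -0.114 to 0.059 in controls. The same animals stood at the ends for many members. Animal 21 was the highest control at T2 for 47 of 74 members, animal 26 the highest prednisolone animal at T2 for 34, and animal 32 the lowest prednisolone animal for 26 at T2 and for 24 at T1.

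**Figure D4:**
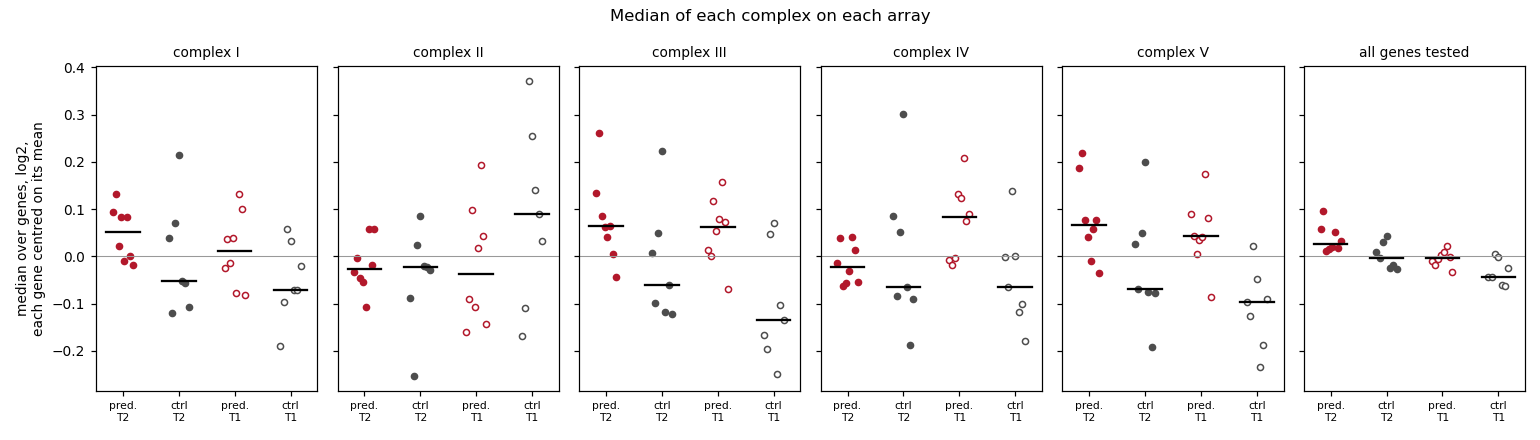
Median over the genes of each complex on each array, in log2 intensity after centring each gene on its mean, with all 2402 tested genes at the right; points are animals and bars are group medians. In every complex the prednisolone (pred.) and control (ctrl) arrays overlap at both T2 and T1, and the highest control T2 point in each of the 5 complexes is animal 21.

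After group means were removed, pairs of members correlated over the 30 arrays with a median r of 0.201 (2701 pairs). The median was 0.209 for 862 pairs within a complex and 0.196 for 1839 pairs across complexes. Within complex II it was 0.546, over 6 pairs. The 2 highest pairs, picked out after their values were seen, were NDUFS6 with COX7A2 (r = 0.865) and NDUFA12 with ATP5PO (r = 0.861), each of different complexes. These values describe arrays that share scaling and animals, and carry no test.

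Other mitochondrial genes gave mixed counts, to be read beside 11.0% of all genes higher and 7.58% lower at T2, and 21.9% higher and 16.1% lower over time in prednisolone animals. Most listed genes were not tested, so the counts do not stand for whole pathways. Tested were 4 of 52 assembly factors and electron carriers and 8 of 26 genes of the TCA cycle and pyruvate entry. Of biogenesis regulators it was 2 of 21, and of membrane transport genes 11 of 32. Of the 4 assembly factors and electron carriers tested, 2 rose in prednisolone animals at T2 and over time. BCS1L, which inserts the Rieske protein into complex III, was 0.76 higher at T2 (limma adjusted p = 0.0025). DHODH, which feeds electrons to ubiquinone, was 0.54 higher (adjusted p = 0.0412). Of 8 genes of the TCA cycle and pyruvate entry, SUCLG1, a subunit of succinyl-CoA ligase, was the only T2 call (0.39, adjusted p = 0.0339), and over time in prednisolone animals SUCLG1 rose and PDP1 fell. Of 2 regulators of mitochondrial biogenesis, TFB2M, a mitochondrial transcription factor, fell at T2 by 0.55 (adjusted p = 0.0017). Over time in prednisolone animals both fell, TFAM by 0.43 and TFB2M by 0.46. Of 11 membrane transport genes, 1 rose at T2, PHB1, prohibitin, at 0.45 (adjusted p = 0.0016), and 3 rose and 4 fell over time in prednisolone animals. The largest of these rises was SLC25A4 (0.60, adjusted p = 0.0035, block 0.0025). The largest fall, the phosphate carrier SLC25A3 (-0.51, adjusted p = 0.0038), lost its call with the block (0.0543). Of 9 antioxidant enzymes none was called at T2, and 1 rose and 3 fell over time in prednisolone animals. None of these lists had a call at T1 or over time in controls, apart from calls of the block. The change over time differed between treatments for DHODH (0.66, limma adjusted p = 0.0320) and SLC25A1 (-0.75, adjusted p = 0.0168). Of all genes, 9.37% were higher and 8.78% lower there.

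Some cell markers were called in the same comparisons, and most markers tested were called in none. Their counts stand beside the same shares of all genes. CD14, a monocyte gene, was 11.41 at the median in prednisolone animals and 12.87 in controls at T2, and 13.74 in prednisolone animals and 12.65 in controls at T1. The difference was -1.11 at T2 (limma adjusted p = 0.0328) and -2.33 over time in prednisolone animals (adjusted p = 1.59e-04), and at T1 it was 1.44 (adjusted p = 0.0556, block 0.0144). Of 3 monocyte markers tested, CD14 fell and ITGAM rose over time. The mean of the 2 markers present on all arrays ran from 13.49 to 15.08 in prednisolone animals and 14.01 to 15.04 in controls at T2, and from 14.79 to 16.35 in prednisolone animals and 14.03 to 14.94 in controls at T1. NFE2, a transcription factor of the erythroid list, was 13.47 at the median in prednisolone animals and 12.30 in controls at T2, and 11.11 in prednisolone animals and 11.98 in controls at T1. It was 1.17 higher at T2 (limma adjusted p = 0.0021) and 2.32 higher over time in prednisolone animals, and its difference at T1 was -1.004 (adjusted p = 0.0892, block 0.0249). It was the 1 erythroid marker of 5 called, and the mean of the list ran from 10.72 to 11.80 in prednisolone animals and 10.25 to 11.86 in controls at T2, and from 9.77 to 11.48 in prednisolone animals and 10.17 to 11.64 in controls at T1. Of 8 T cell markers, CD2 rose at T2 (limma adjusted p = 0.0367, block 0.0606), and CD2, CD3G, CD6 and CD8A rose over time in prednisolone animals. The mean of the list ran from 11.33 to 11.87 in prednisolone animals and 11.22 to 11.71 in controls at T2, and from 11.15 to 11.48 in prednisolone animals and 10.91 to 11.79 in controls at T1. Among the remaining lists, NCR1 of 8 natural killer markers rose at T2 (limma adjusted p = 0.0408, block 0.0809), while CR2 of 3 B cell markers and CATHL5 of 7 neutrophil markers rose over time in prednisolone animals, and neither of 2 platelet markers was called. No deposited intensity was 0. The part of these shifts in the member calls was not tested.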

How the data were processed

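The authors deposited 1 table of linear Cyanine 3 intensity for 30 arrays and 44407 features. Per the series' design text, slides were scanned at 2 sensitivities and the values are the detrended, background-subtracted processed signal of Feature Extraction 9.5. The submitters' processing notes name R 2.11.1, and any further normalization between arrays is not given in the sources used here. Values missing from the table (17.16%) were left missing.

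Of these features, 6954 were named with 1 gene through the platform annotation and the RefSeq gene table, 5432 by accession, 1358 by current symbol, 162 by synonym and 2 by platform name, and 37453 were not named. Members were named by accession (68), current symbol (4) or synonym (2). Each array was divided by its 75th percentile over the features with a value on every array, which moved no array by more than 0.044 log2. Intensities were raised to a floor of 2.511 (percentile 1) and logged to base 2. Features of a gene within 0.25 log2 of its brightest were averaged. Genes in the dimmest 25% or with under 4 arrays in a group were not tested.

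Tests were made with limma 3.58.1 in R 4.3.3 (lmFit, eBayes) on the arrays of the groups compared, with Benjamini-Hochberg adjustment over 2402 genes. The fit was tested on simulated data for the treatment difference at T2 only. Those data had independent noise on each array and no animal effect. They therefore do not bear on the pairing or on the comparisons over time. The animal numbers in the titles pair T2 with T1. After group means were removed, T2 and T1 of 1 animal correlated over genes at r = 0.199 to 0.664 (median 0.418), and for 14 of 15 animals no other animal's array matched better. The block's consensus correlation was 0.260. Alternatives were the animal block, 1 fit of all arrays, 2 other scalings, 2 other ways of combining features, no filter, a floor of 16, and leaving out animals 28 and 32, whose T1 arrays stood apart over all genes.

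Named with values are members called in any comparison, with or without the block, and the largest difference in each direction in each complex and treatment comparison. Other lists give counts and a few genes for values. The members, lists, rules and alternatives were chosen with earlier results of these data known. P-values of the main fit measure the spread between animals within a group. That fit has no animal term, so over time it treats the T2 and T1 arrays of an animal as independent. The number of arrays limits the precision.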

Additional observations from a re-analysis of the deposited data

Results flagged for a closer look

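Of 156 groups examined among the genes named, 10 had 1 array far from the rest of its group, where chance marks about 1 in 20, or 7.8. In prednisolone animals at T2, ATP5PD was at 10.45 in animal 25 and COX7C at 13.61 in animal 26. In prednisolone animals at T1, ATP5PB was at 6.97 in animal 32. In controls at T2, COX7C was at 13.23 in animal 23, COX8A at 14.55 in animal 21, SDHA at 14.48 and SDHC at 12.38 in animal 18, and UQCRC2 at 10.42 in animal 24. In controls at T1, DMAC2L was at 8.33 in animal 23 and NDUFA8 at 10.92 in animal 17.

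T2 minus T1 differed between prednisolone and control animals, by a limma test of the difference itself with Benjamini-Hochberg adjustment, for DMAC2L (-0.86), COX6B1 (-0.53), NDUFC1 (-0.42), NDUFA9 (-0.37) and NDUFS1 (0.62). Negative values mean a lower change in prednisolone animals.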

How the results depend on the processing

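Of 33 member calls, 18 were given by every alternative run: 3 of 6 at T2, 12 of 21 over time in prednisolone animals, 3 of 5 for the difference in change over time and 0 of 1 at T1. The count at T1 was 7 with the animal as a replicate block and 7 in 1 fit of all arrays, 0 with no intensity filter and 0 without animals 28 and 32. The count at T2 was 3 on the brightest feature and 3 with no filter, all of them falls. Over time in prednisolone animals 13 members were called without animals 28 and 32, and in controls 2 with the block. For the difference in change over time the count was 13 with the block, 8 on intensities as deposited and 3 without animals 28 and 32. Leaving out those 2 animals also leaves fewer arrays, and the cause of the other changes was not tested. Every other count was within 1.5 times of that reported. The member medians moved by less than 0.086, the SD between arrays of a group. That SD is wider than the medians themselves (0.003 to 0.084), so it does not show that they held. Of the medians, 2 near 0 changed sign. Over time in prednisolone animals 0.004 became -0.040 as deposited and -0.011 after quantile normalization. For the difference in change over time 0.003 became -0.028, -0.006, -0.019 and -0.016 as deposited, after quantile normalization, on the brightest feature and without animals 28 and 32. The median of all genes over time in prednisolone animals was 0.040 as reported and -0.003 as deposited. No called member difference changed direction. Of 370 member differences, 75 uncalled ones, at most 0.211 in size, did so in some alternative, among them SDHA at T1 (0.02), at -0.005 after quantile normalization and -0.003 without animals 28 and 32. The block changed no member call beyond those given in the results. Quantile normalization covered 1630 genes. The share of higher calls among all genes at T1 was 37.5% as reported, 64.7% with the block and 54.1% after quantile normalization, over 8 calls in the first case.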
